A study of Mus musculus with 6 samples.

Results

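The genes described here are 9 genes used as markers of tendon, fibrous tissue and the articular surface: Scx, Mkx, Tnmd, Dpt, Pdgfra, Cilp, Cilp2, Abi3bp and Prg4. They were chosen by name, with earlier results of these data known, and each was read from its probe set on the array. All 9 had a probe set of 1 gene and all 9 passed the filter on low values, out of 17020 genes tested. Total RNA came from chondrocytes of the growth plate, the layer of cartilage in which long bones lengthen, in the femurs and tibiae of mice at postnatal day 30. There were 3 samples from control mice and 3 from conditional Lkb1 mutants, each on its own Affymetrix array. Lkb1, now named Stk11, is the gene of a kinase that acts upstream of AMPK. Animals of both groups had a mixed background of FVB, 129S6 and C57CL/6. The labels do not name the driver of the conditional mutation, the cells in which it acts, or the genotype of the controls. They call the replicates biological without saying that they are separate animals, so each p-value measures the spread between these samples.

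Tendon and ligament cells arise from progenitors that express the transcription factor Scx. The factor Mkx supports tendon maturation, and mature tendon cells make the membrane protein tenomodulin. Around a growth plate, fibrous tissue lies in the perichondrium and in the insertions of tendons and ligaments, where cells carry the receptor Pdgfra and deposit matrix proteins such as dermatopontin. At the joint surface, superficial chondrocytes and synovial cells secrete lubricin, the product of Prg4, and articular cartilage holds the intermediate layer proteins of Cilp and Cilp2. Abi3bp is made by cartilage and mesenchymal cells. None of these arrays separates the growth plate from the tissue beside it.

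Of the 9 genes, 4 rose in the mutants and 0 fell, at a limma adjusted p of 0.05 over all genes tested. Over all 17020 genes, 14.7% passed this test, 7.84% higher and 6.82% lower in the mutants. The risen genes were Tnmd (5.19-fold), Pdgfra (1.97-fold), Abi3bp (1.69-fold) and Scx (1.53-fold), each above every control on all 3 mutant arrays. The groups did not overlap for 5 of the 9 genes, all higher in the mutants, and for 36.7% of all genes tested (20.0% higher and 16.7% lower). Mkx, Dpt, Cilp, Cilp2 and Prg4 did not pass. The median difference of the 9 genes was 0.47 on the log2 scale, against 0.03 over all genes tested. Because the genes were chosen with earlier results known, these counts and medians are not a test of the set. Within the set, 7 differences were positive, and those of Cilp and Prg4 were negative.

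The promoter stretches of 3 of the genes are shown for context, chosen to set the most changed gene (Tnmd) beside a fibrous matrix gene (Dpt) and the gene with the lowest difference (Cilp). They are the 250 bases before the transcription start in RefSeq, build GRCm38.p6, all on the plus strand: chrX:133850758-133851007 for Tnmd, chr1:164796413-164796662 for Dpt and chr9:65264930-65265179 for Cilp. Capitals mark matches to the E-box CANNTG, the letters that basic helix-loop-helix factors such as Scx bind; the motif reads the same on both strands, and each match is counted once.
Tnmd: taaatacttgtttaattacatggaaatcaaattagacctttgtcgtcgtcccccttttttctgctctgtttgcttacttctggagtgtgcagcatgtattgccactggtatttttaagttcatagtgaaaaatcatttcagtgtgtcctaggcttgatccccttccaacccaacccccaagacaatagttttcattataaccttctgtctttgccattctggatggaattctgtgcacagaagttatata
Dpt: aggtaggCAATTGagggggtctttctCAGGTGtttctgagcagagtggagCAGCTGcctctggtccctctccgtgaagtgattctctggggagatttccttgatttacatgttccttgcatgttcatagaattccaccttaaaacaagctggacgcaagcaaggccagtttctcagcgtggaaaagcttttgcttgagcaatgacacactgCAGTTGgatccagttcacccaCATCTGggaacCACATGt
Cilp: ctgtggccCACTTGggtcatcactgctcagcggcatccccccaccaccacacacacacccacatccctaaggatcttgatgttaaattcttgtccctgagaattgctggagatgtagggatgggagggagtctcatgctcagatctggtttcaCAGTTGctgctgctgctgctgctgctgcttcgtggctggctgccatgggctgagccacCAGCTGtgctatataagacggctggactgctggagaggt
RefSeq promoter entries matched 5 of the 9 genes, and Scx, Mkx, Abi3bp and Prg4 had none. The Tnmd stretch had 0 matches to CANNTG, that of Cilp had 3 and that of Dpt had 6, while Pdgfra and Cilp2 had 1 each. Among 32851 promoter stretches of the same length, 66.2% held at least 1 match and 0.274% held at least 6. The match nearest to the start lay 7 bases before it in Dpt and 39 bases before it in Cilp. A match is a run of letters and was not tested as a binding site, and its absence from the Tnmd stretch says only that these letters are not in this window.

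The values of every array are needed to read the differences, since the groups differ in tissue signal. Stk11 was lower on every mutant array than on any control array, by 1.67 on the log2 scale (a difference of -1.67, SE 0.22, limma adjusted p = 0.00387); where its probes lie relative to the mutated part was not analysed here. Stk11 was at 8.68, 9.08 and 9.67 in control replicates 1, 2 and 3, and with the bone marrow signal described next as a covariate its difference was 0.43 (adjusted p = 0.559). All 10 chondrocyte markers exceeded the background on all arrays and none was called. For 3 of the 10 the groups did not overlap, all lower in the mutants, against 16.7% of all genes tested. Col2a1, the main cartilage collagen, was at 12.35 ± 0.02 in the controls and 12.39 ± 0.07 in the mutants (SD, n = 3 each). The mean level of 23 erythroid, neutrophil and B lymphoid genes, markers of bone marrow, was 8.46 in control replicate 1, 9.20 in control replicate 2 and 9.92 in control replicate 3, whereas the mutants had 5.97, 6.01 and 5.73. The controls thus differed in marrow signal among themselves and from the mutants. All levels are log2(intensity + 1), and background means the 95% point of 1035 probe sets of olfactory receptor genes on the same array, which lay between 6.40 and 6.73.

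**Figure D1:**
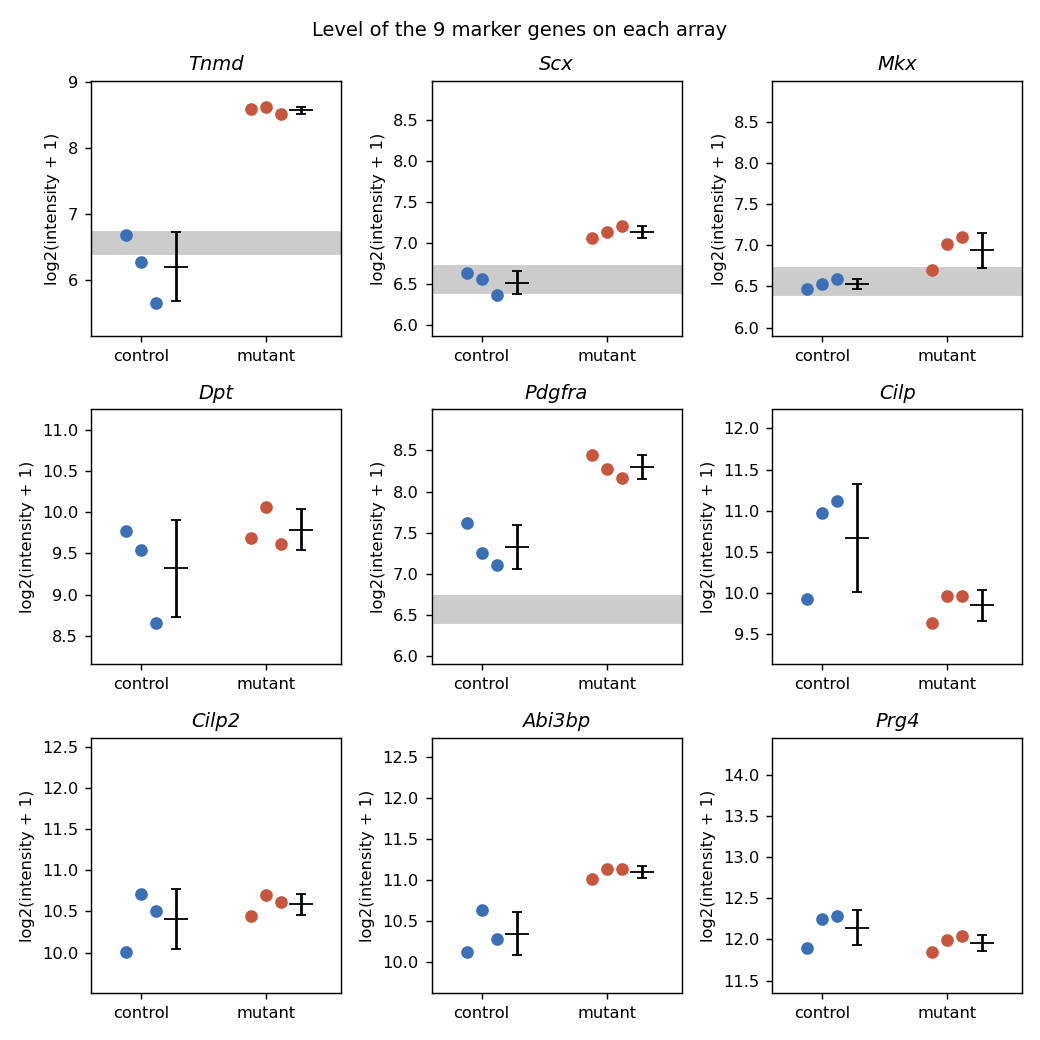
Level of each of the 9 genes as log2(intensity + 1) on the 3 control (blue) and 3 mutant (red) arrays, replicates 1 to 3 from left to right, with the mean and SD of each group in black; every axis spans its own range and the grey band is the range of the background (6.40 to 6.73). The groups do not overlap for Tnmd, Scx, Mkx, Pdgfra and Abi3bp, and they overlap for Dpt, Cilp, Cilp2 and Prg4.

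The tendon transcription factors Scx and Mkx had low levels near background in the controls. Scx, which encodes scleraxis, a basic helix-loop-helix factor of the tendon lineage, was at 6.63, 6.56 and 6.37 in control replicates 1, 2 and 3 and at 7.06, 7.14 and 7.21 in the mutants. Only control replicate 1 exceeded its array's background, whereas all 3 mutants did. Scx rose by 0.62 (SE 0.10, 95% interval 0.38 to 0.85, limma adjusted p = 0.00813). The adjusted p reached 0.0498 without mutant replicate 3. Mkx, which encodes the homeobox factor Mohawk that supports tendon maturation, was at 6.47, 6.53 and 6.59 in the controls and at 6.70, 7.02 and 7.10 in the mutants. Its groups did not overlap, yet mutant replicate 1 lay only just above the highest control. The difference of 0.40 (SE 0.12) missed the threshold, with a limma adjusted p of 0.0648, and its 95% interval was 0.12 to 0.69. It passed without mutant replicate 1 (difference 0.52, adjusted p = 0.0354). With any other single array left out it did not pass, with limma adjusted p of up to 0.225. For both factors the fold change is limited by the background, because 1 of 3 controls exceeded it.

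Tnmd, which encodes the tendon membrane glycoprotein tenomodulin, had the largest difference of the 9. The controls (replicates 1 to 3) had levels of 6.69, 6.27 and 5.65, and the mutants 8.60, 8.62 and 8.52. The mutants lay within 0.10 of each other, the controls spanned 1.04, and the groups were far apart. Tnmd rose by 2.38 (SE 0.23, 95% interval 1.83 to 2.92, limma adjusted p = 0.00121) and ranked 16 among 17020 genes by the size of the rise. In the controls only replicate 1 was above background, so the 5.19-fold difference is limited by it. Tnmd passed the test with every other normalisation, filter and variance model tried and with any single array left out, with differences of 2.10 to 2.62, but not with marrow signal as a covariate, described below.

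The nearest relative of Tnmd is Cnmd, which encodes the cartilage protein chondromodulin, and it was bright in both groups. Cnmd was at 12.07 ± 0.07 in the controls and at 12.17 ± 0.01 in the mutants (SD, n = 3 each), a difference of 0.10 (95% interval -0.09 to 0.29, limma adjusted p = 0.48). Within each array, Tnmd minus Cnmd was -5.43, -5.83 and -6.35 in the controls and -3.57, -3.56 and -3.65 in the mutants. The shift of this within-array difference was 2.28, with an exact two-sided permutation p of 0.1, the smallest that 3 against 3 arrays can give. It is 1 of 4 such gene pairs, chosen after their values were seen, and the Benjamini-Hochberg value over the 4 was 0.133. For Scx and its relative Tcf15, which encodes the factor paraxis, the shift was 0.59, also with an exact permutation p of 0.1. Tcf15 itself differed by 0.03 (95% interval -0.24 to 0.29).

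Among the markers of fibrous connective tissue, Pdgfra rose and Dpt did not pass. Pdgfra, which encodes the alpha receptor for platelet-derived growth factor on mesenchymal and fibroblastic cells, was at 7.62, 7.25 and 7.11 in the controls and at 8.45, 8.28 and 8.17 in the mutants. All 6 values were above background and the groups were apart by more than the spread of either. The rise was 0.98 (SE 0.15, 95% interval 0.63 to 1.32, limma adjusted p = 0.00586), and Pdgfra ranked 296 among 17020 genes by the size of the rise. Dpt, which encodes dermatopontin, a small matrix protein that binds decorin and collagen fibrils, was at 9.77, 9.54 and 8.65 in the controls and at 9.69, 10.07 and 9.61 in the mutants. Control replicate 3 was low, control replicate 2 lay just below the lowest mutant, and control replicate 1 lay among the mutants. The difference was 0.47 (SE 0.28, 95% interval -0.18 to 1.12, limma adjusted p = 0.315), and without control replicate 3 it was 0.14 (adjusted p = 0.608). In whole-tissue RNA, a greater share of cells of a type and more RNA per cell cannot be told apart, for these genes and for all others here.

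Of 6 genes for PDGF ligands and for receptors related to Pdgfra, 3 passed as higher in the mutants and none as lower, against 7.84% and 6.82% of all genes tested; none of the 3 passed with marrow signal as a covariate. Pdgfrb, the beta receptor that pericytes and fibroblasts carry, was at 7.89, 7.93 and 7.55 in the controls and at 8.98, 9.0 and 9.11 in the mutants, and rose by 1.24 (SE 0.12, limma adjusted p = 0.00115). Within arrays, Pdgfra minus Pdgfrb shifted by -0.26 between the groups, with an exact two-sided permutation p of 0.2. Of the 4 ligands, Pdgfc, which binds the alpha receptor, rose by 1.03 (SE 0.11, limma adjusted p = 0.00178). Pdgfd, a ligand of the beta receptor, differed by 0.72 (limma adjusted p = 0.00703) but exceeded the background on 0 of 6 arrays. Pdgfa and Pdgfb differed by 0.19 and 0.20 and did not pass (limma adjusted p = 0.45 and 0.362). Pdgfrl, a receptor-like gene without a kinase domain, differed by 0.41 (limma adjusted p = 0.0935).

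**Figure D2:**
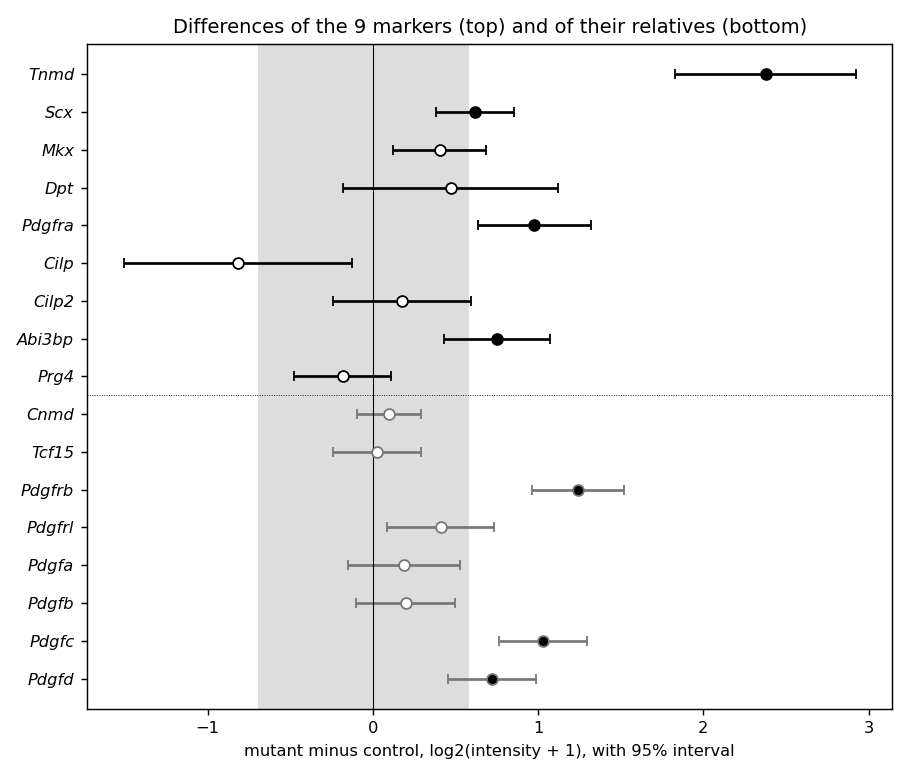
Difference between mutant and control arrays on the log2(intensity + 1) scale with its 95% interval from limma, for the 9 genes (above the dotted line) and their relatives and ligands (below it); filled points passed an adjusted p of 0.05, and the grey band holds the middle of all 17020 genes, from the 5% to the 95% point (-0.69 to 0.57). Tnmd lies at 2.38, far to the right of the band, and Cilp at -0.82 to its left with a wide interval.

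The 4 markers of cartilage and the joint surface were bright on all arrays. Of these, 1 passed, where 14.7% of all genes tested did, and so small a count is not read as a result. Abi3bp, which encodes a secreted matrix protein of cartilage and mesenchymal cells, was at 10.13, 10.64 and 10.28 in control replicates 1, 2 and 3 and at 11.02, 11.14 and 11.14 in the mutants. The mutants were close together and above every control. Abi3bp rose by 0.75 (SE 0.14, 95% interval 0.43 to 1.07, limma adjusted p = 0.0121). The call ended when mutant replicate 2 was left out (adjusted p = 0.0531), and likewise for mutant replicate 3 (adjusted p = 0.0594), while the difference stayed at 0.73 in both.

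Prg4, which encodes lubricin, the lubricant of the articular surface, was at 11.90, 12.25 and 12.28 in the controls and at 11.85, 11.99 and 12.04 in the mutants. The groups overlapped and their order was slightly reversed. The difference was -0.18 (SE 0.13, 95% interval -0.48 to 0.11, limma adjusted p = 0.39). In this fit the interval lay below the differences of Abi3bp and Pdgfra. With marrow signal as a covariate, a fit described below, the Prg4 difference was 0.60 (SE 0.39, limma adjusted p = 0.414). It was 0.06 with control replicate 1 as the sole control, a value with no test.

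The cartilage intermediate layer genes are a pair of paralogs whose products are secreted into articular cartilage matrix, and their differences had opposite signs. Cilp was at 9.92, 10.97 and 11.12 in control replicates 1, 2 and 3 and at 9.63, 9.96 and 9.96 in the mutants. Control replicate 1 lay among the mutants, and the other 2 controls were higher. The difference was -0.82 (SE 0.30, 95% interval -1.51 to -0.13) and missed the threshold, with a limma adjusted p of 0.112. Without control replicate 1 it passed (difference -1.19, adjusted p = 0.00163), and with control replicate 1 as the sole control it was -0.07, so the size of the Cilp difference rests on which controls are used. Cilp2 was at 10.01, 10.71 and 10.51 in the controls and at 10.45, 10.70 and 10.61 in the mutants. All mutants lay between the lowest and the highest control. The difference was 0.18 (SE 0.18, 95% interval -0.24 to 0.59, limma adjusted p = 0.566), and it was -0.02 without control replicate 1 and 0.33 without control replicate 2.

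Within arrays, Cilp minus Cilp2 took values of -0.09, 0.25 and 0.61 for the controls (replicates 1 to 3), as against -0.82, -0.74 and -0.65 for the mutants. These values did not overlap between the groups, although each gene alone did. Their shift was -0.996, with an exact two-sided permutation p of 0.1, the smallest possible here, and 0.133 after adjustment over the 4 pairs. The comparison was chosen after the values were seen.

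Of 15 further tendon and ligament genes measured, 8 rose and 0 fell, with a median difference of 0.61. Over all genes tested, 7.84% passed as higher and 6.82% as lower, the shares to set beside this list and the next. All these lists were chosen with earlier results of these data known. Tnc, which encodes the matrix glycoprotein tenascin-C, rose by 2.35 (SE 0.28, limma adjusted p = 0.00228), Cpxm2, a carboxypeptidase-like secreted protein, by 2.10 and Col1a1, the main collagen of tendon and bone, by 1.91. Of 16 further fibroblast and connective tissue genes, 9 rose and 2 fell, with a median of 0.81. Col3a1, a fibrillar collagen of loose connective tissue, rose by 1.73 and Ogn, a small leucine-rich proteoglycan, by 1.69. The 2 that fell were Dpp4, a surface peptidase of fibroblasts and lymphocytes (-1.41), and Pi16 (-1.11), the latter named after its values were seen; neither exceeded the background in any mutant. With marrow signal as a covariate, a fit described below, 0 genes of these lists passed. The differences were then -0.38 for Tnc, -0.039 for Cpxm2 and -0.30 for Dpp4. They were 0.67 for Col1a1, 0.23 for Col3a1 and 0.66 for Ogn.

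Of 12 further articular and synovial genes, 4 rose and 0 fell, with a median of 0.38; without mutant replicate 2, and likewise without mutant replicate 3, 2 genes of this list passed. Gdf5, a growth factor of the joint interzone, rose by 1.43 (SE 0.12, limma adjusted p = 0.00066) and was at 6.75, 7.07 and 7.07 in the controls and at 8.42, 8.49 and 8.27 in the mutants. Has1, a hyaluronan synthase of synovial cells, rose by 0.96 (limma adjusted p = 0.00211). Tppp3, a marker of tendon sheath and synovial progenitors, rose by 0.79 (limma adjusted p = 0.0247), but its call ended without control replicate 2 and without each mutant replicate in turn, with adjusted p of up to 0.0927. The other 8 genes of the list did not pass. In the fit on all arrays, 7.84% of all genes tested passed as higher and 6.82% as lower. Leaving out mutant replicate 2 or 3 gave 1185 and 936 calls over all genes, against 2496. With marrow signal as a covariate 0 genes of the list passed. In that fit the Tppp3 difference was -0.77, that of Has1 0.25 and that of Gdf5 2.23 (SE 0.35, limma adjusted p = 0.0609).

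**Figure D3:**
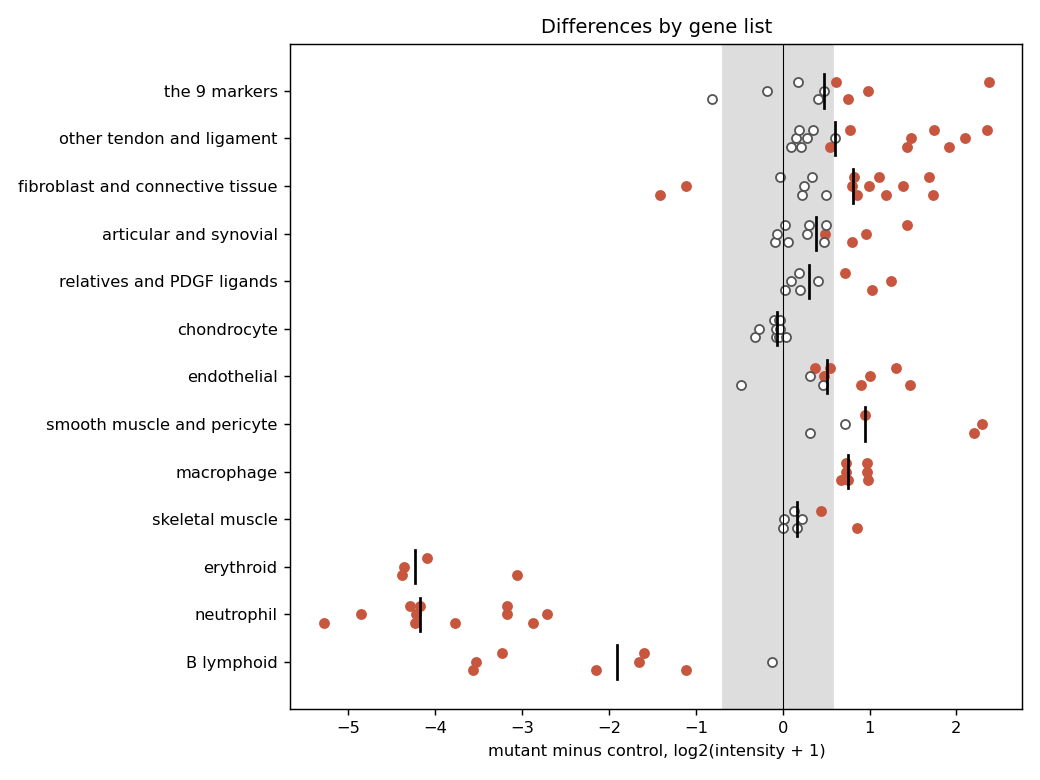
Differences between mutant and control arrays (log2 scale) for the tested genes of each list, red where they passed an adjusted p of 0.05 and open where they did not, with the median as a black bar and the grey band from the 5% to the 95% point of all 17020 genes. The lists of tendon, fibrous tissue, endothelium, smooth muscle and macrophages lie mostly to the right, the chondrocyte list near 0 and the blood lineage lists far to the left.

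Markers of several other cell types also differed between the groups. All 4 erythroid and 11 neutrophil genes measured and 7 of 8 B lymphoid genes fell, with medians of -4.23, -4.18 and -1.91. The number of genes above background on every array of a group went from 3 in the controls to 0 in the mutants for the erythroid list, from 11 to 2 for the neutrophil list and from 7 to 1 for the B lymphoid list. Of 10 endothelial genes 7 rose, of 5 smooth muscle and pericyte genes 3 rose, and of 7 macrophage genes 7 rose, with none lower in these lists. The mean level of the smooth muscle and pericyte list was 6.62 to 7.07 in the controls and 7.98 to 8.23 in the mutants, that of the endothelial list 6.62 to 6.85 and 7.19 to 7.44, and that of the macrophage list 7.46 to 7.75 and 8.25 to 8.80. Of 7 skeletal muscle genes tested 2 rose, of 5 adipocyte genes 2 rose, and of 4 osteoblast and osteocyte genes 1 fell. The single Schwann cell gene measured did not pass. Over all genes tested, 7.84% passed as higher and 6.82% as lower in the mutants. In lists this short, 1 or 2 calls are not read as a result about a cell type. The part of these cells in the differences of the 9 genes was not tested.

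Across the controls in order of rising marrow signal, 4 of the 9 genes fell and 3 rose at each step. Tnmd, Scx, Dpt and Pdgfra had their highest level in control replicate 1, with the least marrow signal, and their lowest in control replicate 3, with the most. Cilp, Mkx and Prg4 had their lowest level in control replicate 1 and their highest in control replicate 3. Over all genes tested, 21.4% fell and 29.5% rose in this order of the controls. With control replicate 1 as the sole control, the differences were 1.89 for Tnmd, 0.51 for Scx, 0.69 for Pdgfra and 0.98 for Abi3bp, values with no test. With the marrow level as a covariate none of the 4 passed: the difference was 0.17 for Tnmd (limma adjusted p = 0.843), 0.01 for Scx (adjusted p = 0.989), -0.04 for Pdgfra (adjusted p = 0.969) and 1.07 for Abi3bp (adjusted p = 0.283). No array has a marrow level between those of the groups, so the covariate fit has to extrapolate the trend seen among the arrays of a group.

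**Figure D4:**
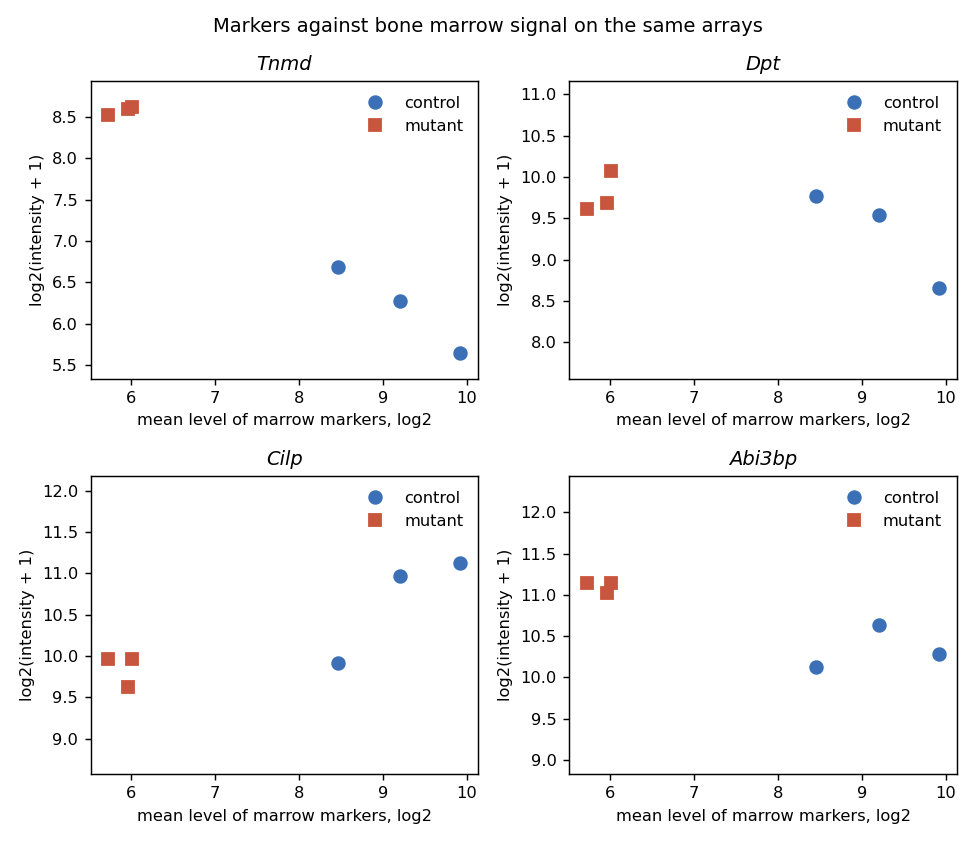
Level of Tnmd, Dpt, Cilp and Abi3bp (log2(intensity + 1), vertical axes of equal span) against the mean level of 23 bone marrow markers on the same array, for 3 control (circles) and 3 mutant (squares) arrays. Among the controls Tnmd and Dpt are lowest and Cilp is highest where marrow signal is highest, Abi3bp has no such order, and no array lies between the groups on the horizontal axis.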

How the data were processed

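The value table deposited by the authors holds intensities on a linear scale, from 0.74 to 9001 for 35512 probe sets on each of 6 arrays; the sources used here do not give how probes were summarised or arrays normalised. Per the labels, 300 ng of total RNA gave biotinylated cDNA. Median intensity per array was 82.4 to 90.5, and the number of arrays limits the precision. The platform annotation gives 21789 probe sets a single gene; symbols were updated by gene number to the RefSeq table of GRCm38.p6 (21698 matched).

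Intensities were taken as log2(intensity + 1) and not normalised again. The 25% of probe sets with the lowest means (below 5.56) were left out, and per gene the probe set with the highest mean was kept. The fit used lmFit and eBayes of limma 3.58.1 under R 4.3.3 (mutant against control, two-sided, Benjamini-Hochberg over all 17020 genes, threshold 0.05). It was checked on simulated data with independent noise for each gene and array. Those data held no marrow signal shared between genes, so the check does not cover its effect. Alternatives covered normalisation, filter, probe set choice, variance model, pseudocount, pairing, single arrays and marrow signal. Genes named are the 9 markers, their relatives and ligands, the 3 called genes with the largest difference in each of the tendon, fibroblast and articular lists, Stk11 and Col2a1. The markers and lists were chosen with earlier results of these data known.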

Additional observations from a re-analysis of the deposited data

How the results depend on the processing

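Under 7 of the alternatives with no array left out, the same 4 of the 9 genes and no others were called. These were both other normalisations, both other filters, the mean of probe sets, the intensity trend and a pseudocount of 16. Array weights and the replicate block, described next, kept these 4 calls and added others. Leaving out each array in turn gave 936 to 3282 calls over all genes against 2496, 3 to 5 calls among the 9 and 19 to 27 among the listed genes against 26. The calls over all genes were 1329 without control replicate 2 and 1198, 1185 and 936 when mutant replicate 1, 2 or 3 was left out. Array weights, a fit that stopped before it converged and gave control replicate 2 a weight of 10.1 against 0.215 to 1.96 for the others, gave 8006 calls, 7 of the 9 genes (Mkx, Cilp and Prg4 added) and differences of -0.085 for Cilp2 and -0.016 for Tcf15. With the replicate block, 2031 genes and 5 of the 9 were called, Cilp being added (limma adjusted p = 0.0411). Deviations of same-numbered arrays from their group means correlated at r = 0.0803, 0.213 and -0.0833. For arrays of unlike number r was -0.177 to 0.106. These few values do not settle whether same-numbered arrays were paired. Without single arrays Cilp2 lay between -0.023 and 0.33 and Tcf15 between -0.038 and 0.11.

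Under the covariate fit on marrow level 63 genes were called, 0 of the 9 and 0 of the listed genes. The sign then turned for Dpt (-1.79), Pdgfra (-0.040), Cilp (1.72), Prg4 (0.60), Cnmd (-0.17), Pdgfrl (-0.46), Pdgfa (-0.997), Tnc (-0.38), Cpxm2 (-0.039), Tppp3 (-0.77), Stk11 (0.43) and Col2a1 (-0.052); the cause was not tested. With control replicate 1 as the sole control, Prg4 (0.064) and Pdgfa (-0.041) turned, values with no test. Signal near background limits Tnmd, Scx and Mkx in the controls.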
